A study of Mus musculus with 24 samples.

Results

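Smooth muscle and pericyte genes are described here as 10 genes that mark the contractile cells of vessel and airway walls and the pericytes of small vessels: Acta2, Myh11, Tagln, Cnn1, Des, Actg2, Pdgfrb, Cspg4, Lmod1 and Synpo2. The genes were chosen with earlier results of these data known. Every probe set whose platform annotation names a single one of these genes was taken, with no measured value used in that step. This gave 19 of the 34945 probe sets annotated to 1 gene, and 10 of 18193 genes. The series measured mouse lung RNA on 24 Affymetrix MOE 430 2.0 arrays. Of these, 14 held tumour nodules large enough to be seen and cut out by eye, and 10 held normal lung. All animals received a diet with doxycycline, the tumour-bearing animals for 3 to 6 months.

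The tumour groups were named by the mutant human epidermal growth factor receptor (EGFR) transgene of bitransgenic mice: 4 arrays of L858R tumours with the strain label FVB mixed, 5 of tumours with L858R and T790M together (L858R+T790M, strain FVB), and 5 of T790M tumours (strain FVB). L858R is a lung cancer mutation that keeps the receptor active, and T790M is a change known for resistance to EGFR inhibitors. The normal lungs came from littermates with no transgene or with only 1 of the pair, 5 with the strain label FVB (FVB normals) and 5 with the label FVB mixed (mixed-strain normals). The labels do not say which normal lung carried a transgene, nor the age or sex of an animal, nor that each array came from a separate animal, so the p-values below measure the spread between these samples, which may in part be technical. The labels write the partner transgene only as C. Nodules cut out by eye can hold stroma and adjoining lung beside tumour cells, and normal lung pieces can hold large airways and vessels.

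Smooth muscle cells shorten by sliding smooth muscle myosin along actin filaments, and in the lung they form the media of arteries and veins and the bands around airways. Pericytes sit on the outside of capillaries, are drawn there by platelet-derived growth factor from the endothelium, and share part of the contractile machinery. Many genes of the contractile set are switched on by serum response factor with its partner myocardin at a DNA element called the CArG box. Several of the genes are also expressed outside these cells: Acta2 and Tagln in activated fibroblasts, Des in heart and skeletal muscle, and Pdgfrb in fibroblasts.

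The promoter of Acta2 is shown because its CArG elements are textbook examples of this control and because Acta2 is read here with the genes it is known to be co-regulated with. In RefSeq (GRCm38.p6) the 250 bases before its start lie at chr19:34255374-34255623 on the minus strand, and capitals mark matches to the CArG box with 1 letter changed inside the stretch of A and T:
Acta2: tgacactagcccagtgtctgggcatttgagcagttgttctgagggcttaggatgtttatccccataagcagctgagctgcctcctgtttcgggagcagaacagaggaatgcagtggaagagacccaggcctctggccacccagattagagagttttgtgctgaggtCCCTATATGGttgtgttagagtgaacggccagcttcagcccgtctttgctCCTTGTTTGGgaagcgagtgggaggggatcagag
The matches began 84 and 34 bases before the start. The exact CArG box is CC, then 6 letters that are each A or T, then GG, a pattern that reads the same on both strands. RefSeq windows from 250 bases before to 50 after the start were found for 6 of the 10 genes (Acta2, Cnn1, Cspg4, Des, Lmod1 and Synpo2). None of these 6 windows held the exact box, which was present in 1.63% of all 32851 windows of that length. The form with 1 changed letter, searched after the exact search had found nothing, was in Acta2 alone of the 6 and in 8.50% of all windows. Among the other contractile genes described below, the exact box was in 4 of 24 windows (16.7%), those of Cnn2, Myl6, Myl9 and Vcl. The form with 1 changed letter was in 2 of those 24 windows (8.33%), those of Myl9 and Pdlim3, near its share of all windows. These matches are a description of letters and not of bound sites.

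Values are log2 probe set levels, and 1 probe set represents each gene, the one with the highest mean over all arrays. Levels of different genes cannot be set against each other. The tumours of a genotype were set against normal lungs that carry the same strain label, with limma and Benjamini-Hochberg adjustment over all 18193 genes, and genes with an adjusted p under 0.05 count as called. Changes are log2 differences (± SE) of tumours minus normals. All 10 genes were called lower in L858R tumours, 9 in L858R+T790M tumours and 8 in T790M tumours, and none was called higher in any of the 3 comparisons. The share of all genes called lower was 18.1%, 16.1% and 17.9% in the same order. The median log2 difference of the 10 genes was -1.71, -1.24 and -1.22, beside 0.05, 0.03 and 0.00 for all genes. Calls of at least 2-fold lower numbered 7, 6 and 6 of the 10 genes, against 6.65%, 5.24% and 5.07% of all genes. Tumour and normal arrays did not overlap for 10, 8 and 8 of the genes, and the shares of all genes with tumours entirely below normals were 16.0%, 13.0% and 12.8%. In bulk tissue, fewer smooth muscle cells or pericytes and less of these RNAs per cell cannot be told apart. The L858R+T790M and T790M comparisons share the 5 FVB normals, so their agreement is not independent.

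**Figure D1:**
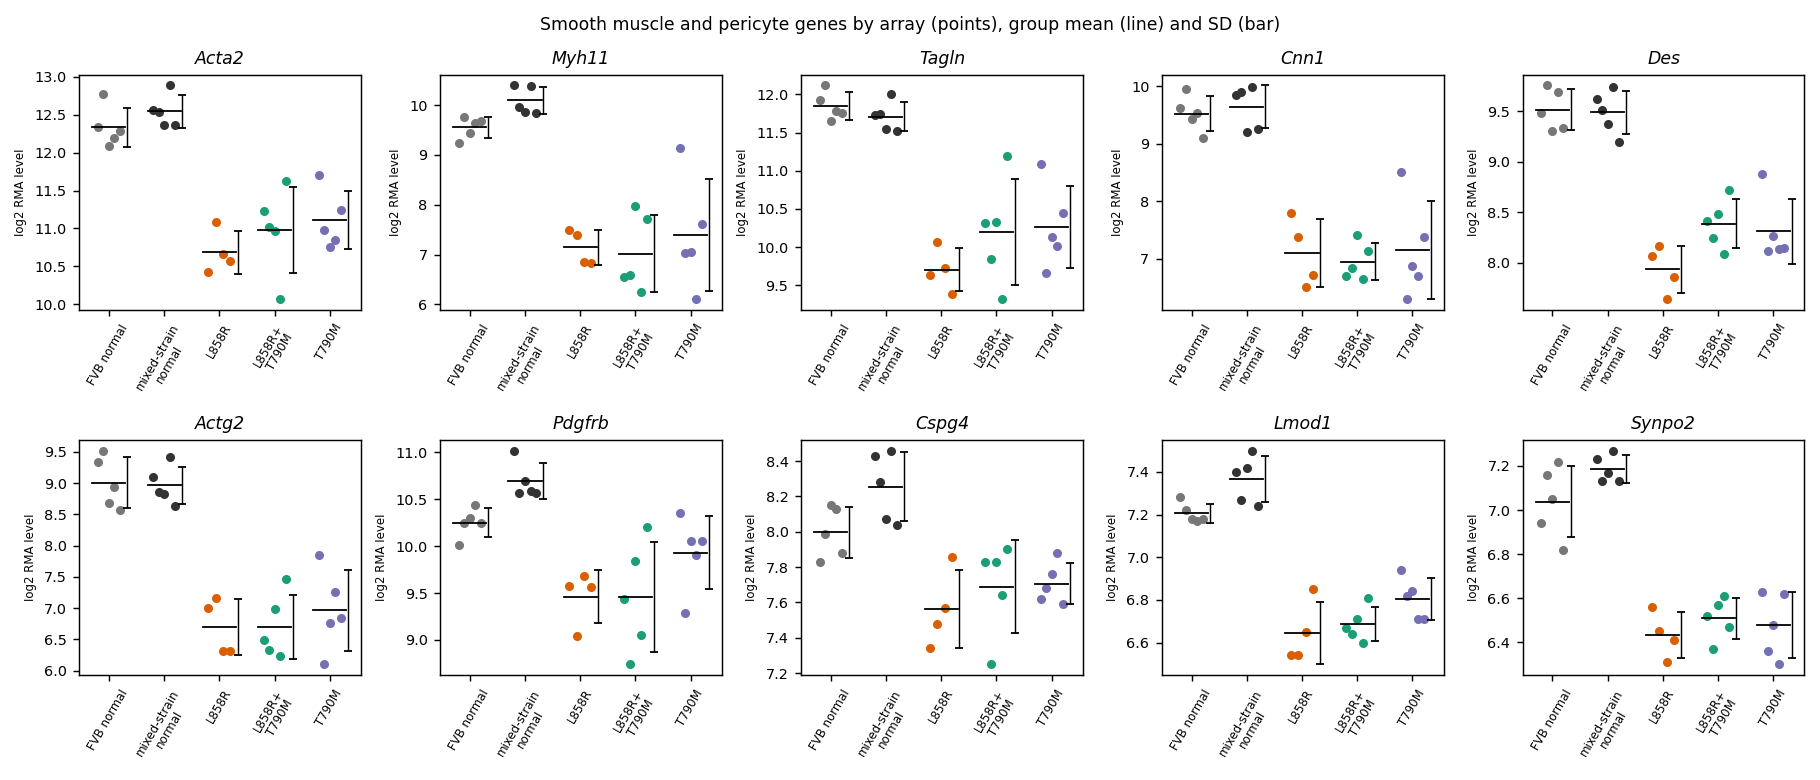
Log2 RMA level (y axis) of each of the 10 genes in the 24 arrays, by group (x axis); points are arrays, lines are group means and bars are SDs. For Acta2, Myh11, Tagln, Cnn1, Des, Actg2, Lmod1 and Synpo2 every tumour array lies below every normal array of its strain label, while the points of Pdgfrb and Cspg4 meet in the FVB groups.

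Myh11, the heavy chain of smooth muscle myosin and the gene most restricted to mature smooth muscle, had values of 10.40, 9.96, 9.87, 10.39 and 9.85 in the mixed-strain normals and 9.25, 9.76, 9.45, 9.64 and 9.68 in the FVB normals. In the tumours it read 7.49, 7.39, 6.86 and 6.84 with L858R, 6.56, 6.59, 7.97, 6.26 and 7.72 with L858R+T790M and 9.15, 7.04, 7.05, 6.11 and 7.62 with T790M. No tumour array reached its normals, but the first T790M tumour, at 9.15, came close to the lowest FVB normal, at 9.25. The log2 difference was -2.95 ± 0.41 (SE) in L858R tumours, a 7.72-fold fall, -2.54 ± 0.39 in L858R+T790M tumours and -2.16 ± 0.39 in T790M tumours (adjusted p from limma 7.71e-06, 2.9e-05 and 0.000155). Without the first T790M tumour the T790M difference was -2.60.

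Cnn1, which encodes calponin, an actin-binding brake on myosin in differentiated smooth muscle, gave 9.85, 9.90, 9.20, 9.98 and 9.26 in mixed-strain and 9.62, 9.94, 9.42, 9.53 and 9.10 in FVB normals. L858R tumours read 7.79, 7.38, 6.51 and 6.72, L858R+T790M tumours 6.70, 6.84, 7.42, 6.65 and 7.14 and T790M tumours 8.51, 6.30, 6.87, 6.70 and 7.38. The lowest normal was 9.10 and 13 of the 14 tumours lay below 8, the first T790M tumour being the other. The fall was 5.81-fold, 5.95-fold and 5.17-fold in L858R, L858R+T790M and T790M tumours, with log2 differences of -2.54 ± 0.33, -2.57 ± 0.32 and -2.37 ± 0.32.

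Actg2, the gamma actin of visceral smooth muscle, read 9.10, 8.85, 8.82, 9.41 and 8.63 in the mixed-strain normals and 9.34, 9.52, 8.68, 8.93 and 8.57 in the FVB normals. Its tumour values were 7.00, 7.16, 6.32 and 6.31 with L858R, 6.49, 6.33, 6.99, 6.23 and 7.46 with L858R+T790M and 7.85, 6.10, 6.76, 7.26 and 6.84 with T790M. Again the first T790M tumour was the highest of the 14 and still below every normal lung. Actg2 was lower by 4.8-fold, 4.95-fold and 4.13-fold in the 3 comparisons, with log2 differences of -2.26 ± 0.30, -2.31 ± 0.29 and -2.05 ± 0.29.

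Acta2, the alpha actin of vascular smooth muscle whose promoter is printed above, stood at 12.56, 12.54, 12.36, 12.89 and 12.37 in mixed-strain and 12.34, 12.77, 12.09, 12.20 and 12.28 in FVB normals. The tumour values were 10.42, 11.08, 10.67 and 10.57 in L858R, 11.23, 11.02, 10.97, 10.07 and 11.62 in L858R+T790M and 11.71, 10.98, 10.76, 10.85 and 11.25 in T790M nodules. All tumours were below all normals, and the fall was less deep than that of Myh11 or Cnn1. The log2 differences were -1.86 ± 0.23, -1.35 ± 0.22 and -1.23 ± 0.22, which are falls of 3.63-fold, 2.56-fold and 2.34-fold. The name of this probe set carries the suffix for probes shared by several transcripts, so signal from related actins on it cannot be told apart from Acta2.

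Tagln encodes transgelin, an actin-binding protein of smooth muscle and activated fibroblasts. It read 11.73, 11.74, 11.55, 12.00 and 11.52 in mixed-strain normals, 11.92, 12.12, 11.65, 11.78 and 11.76 in FVB normals, 9.63, 10.06, 9.73 and 9.38 in L858R tumours, 10.32, 9.84, 10.33, 9.32 and 11.19 in L858R+T790M tumours and 11.09, 9.66, 10.13, 10.01 and 10.44 in T790M tumours. The fifth L858R+T790M tumour, at 11.19, and the first T790M tumour, at 11.09, were nearest to the normals. Tagln fell 4.02-fold, 3.13-fold and 2.99-fold, with log2 differences of -2.01 ± 0.28, -1.65 ± 0.26 and -1.58 ± 0.26.

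Des encodes desmin, the intermediate filament that ties contractile units to each other and to the membrane in all kinds of muscle and in pericytes. Its values were 9.62, 9.51, 9.38, 9.74 and 9.20 in mixed-strain normals, 9.48, 9.76, 9.31, 9.69 and 9.34 in FVB normals, 8.07, 8.17, 7.64 and 7.86 in L858R tumours, 8.41, 8.24, 8.48, 8.09 and 8.72 in L858R+T790M tumours and 8.88, 8.12, 8.26, 8.14 and 8.15 in T790M tumours. The tumours formed a narrow band from 7.64 to 8.88, below normals from 9.20 to 9.76. The log2 difference was -1.55 ± 0.16, -1.13 ± 0.15 and -1.21 ± 0.15, with adjusted p-values (limma) of 2.07e-07, 5.83e-06 and 3.17e-06.

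On the probe sets that represent them, Lmod1 and Synpo2 changed less on the log2 scale, with a small spread. Other Synpo2 probe sets fell further, as given below. Lmod1, a leiomodin that starts new actin filaments in smooth muscle, read 7.40, 7.27, 7.42, 7.50 and 7.24 in mixed-strain normals, 7.28, 7.22, 7.18, 7.17 and 7.18 in FVB normals, 6.54, 6.54, 6.65 and 6.85 in L858R tumours, 6.67, 6.64, 6.71, 6.60 and 6.81 in L858R+T790M tumours and 6.94, 6.82, 6.84, 6.71 and 6.71 in T790M tumours. Every tumour was below 7 and every normal above it. The log2 difference was -0.72 ± 0.07, -0.52 ± 0.07 and -0.40 ± 0.07. Synpo2, or myopodin, an actin-bundling protein of muscle cells, read 7.23, 7.13, 7.17, 7.27 and 7.13 and 6.94, 7.16, 7.05, 7.22 and 6.82 in the mixed-strain and FVB normals. Its tumour values were 6.56, 6.45, 6.31 and 6.41 with L858R, 6.52, 6.37, 6.57, 6.61 and 6.47 with L858R+T790M and 6.63, 6.36, 6.48, 6.30 and 6.62 with T790M. Synpo2 also separated tumours from normals in full (-0.75 ± 0.08, -0.53 ± 0.08 and -0.56 ± 0.08).

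The pericyte genes Pdgfrb and Cspg4 differed from the contractile genes in that tumours and FVB normals overlapped. Pdgfrb encodes the receptor through which platelet-derived growth factor B attracts pericytes. It read 11.02, 10.57, 10.70, 10.59 and 10.57 in mixed-strain and 10.01, 10.25, 10.30, 10.44 and 10.25 in FVB normals. L858R tumours gave 9.57, 9.04, 9.68 and 9.56, L858R+T790M tumours 9.44, 8.74, 9.84, 9.05 and 10.20 and T790M tumours 10.35, 9.29, 10.05, 9.91 and 10.06. All L858R tumours lay below all mixed-strain normals, whereas the fifth L858R+T790M tumour and 3 of the 5 T790M tumours (replicates 1, 3 and 5) lay at or above the lowest FVB normal, 10.01. Pdgfrb fell 2.34-fold in L858R tumours, a log2 difference of -1.23 ± 0.23 (adjusted p from limma 0.000192), and 1.74-fold in L858R+T790M tumours, -0.80 ± 0.22 (adjusted p from limma 0.00609). The T790M difference was -0.32 ± 0.22 with a 95% interval of -0.77 to 0.13 and an adjusted p (limma) of 0.264, and was not called. With all 10 normal lungs as 1 group it was -0.54 and called (adjusted p from limma 0.0328). That group adds the mixed-strain normals, which differ in strain label from the T790M tumours. For Pdgfrb they all lay above the FVB normals (0.44 ± 0.22, not called).

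Cspg4, the NG2 proteoglycan of the pericyte surface, also carried by other progenitor cells, read 8.43, 8.28, 8.07, 8.46 and 8.04 in mixed-strain normals and 7.83, 7.99, 8.15, 8.13 and 7.88 in FVB normals. The tumour values were 7.34, 7.48, 7.57 and 7.86 with L858R, 7.83, 7.25, 7.83, 7.64 and 7.90 with L858R+T790M and 7.62, 7.68, 7.76, 7.88 and 7.59 with T790M. The FVB normals started at 7.83, a value that 3 of 5 L858R+T790M tumours and 1 of 5 T790M tumours reached or passed. Cspg4 fell (-0.69 ± 0.13) in L858R tumours (adjusted p from limma 0.000165). The differences of -0.31 ± 0.12 and -0.29 ± 0.12 in L858R+T790M and T790M tumours were not called (adjusted p from limma 0.0524 and 0.0615). Both stood close to the threshold: the first was called without FVB normal 1 or without L858R+T790M tumour 1, 3 or 5 (-0.34 to -0.36), and the second without FVB normal 1 or T790M tumour 4 (-0.33 in both cases). Both were called with array weights (-0.29 and -0.35) and against all 10 normal lungs (-0.44 and -0.42). Those 10 include the mixed-strain normals, whose Cspg4 mean was above that of the FVB normals (0.26 ± 0.12, not called).

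**Figure D2:**
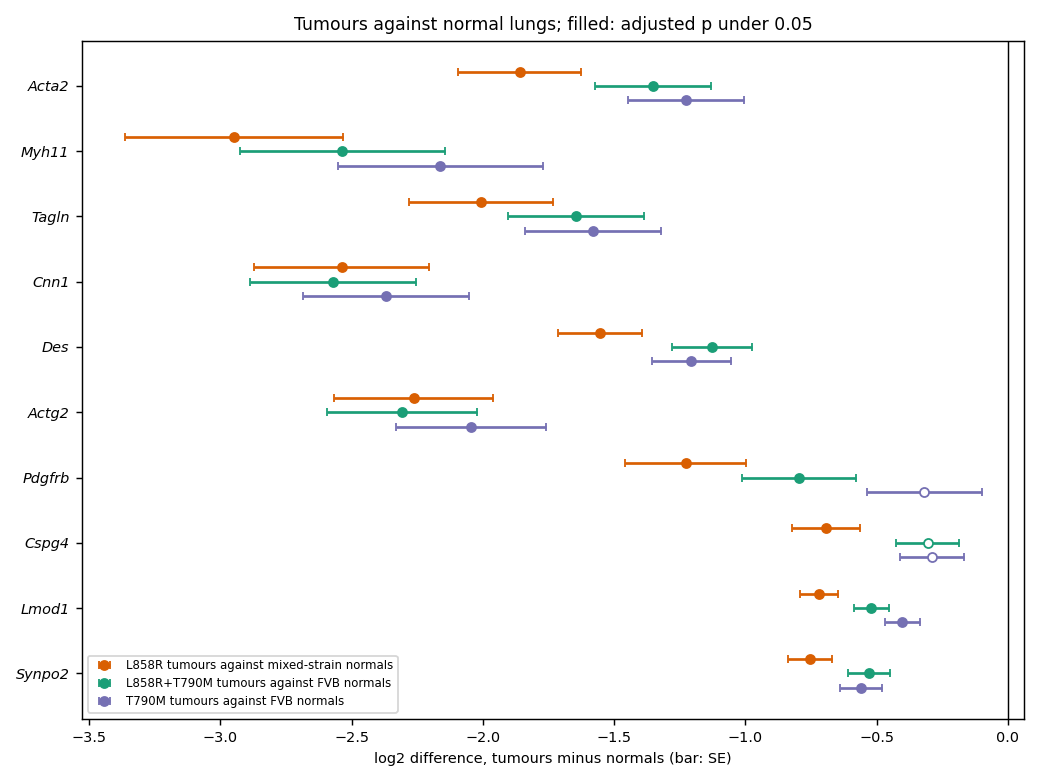
Log2 difference of tumours minus normals (x axis, bars are SEs) for each gene (y axis) in the 3 tumour comparisons; filled points were called at an adjusted p under 0.05. Myh11, Cnn1, Actg2 and Tagln lie furthest left, and the open points are Pdgfrb in T790M tumours and Cspg4 in L858R+T790M and T790M tumours.

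Of the 10 genes, 6 had several probe sets, and these gave the same direction with different sizes. Of the 19 probe sets, 18 were called lower in L858R tumours, 16 in L858R+T790M tumours and 14 in T790M tumours, against 18.0%, 15.2% and 17.2% of the 34945 probe sets, and none was called higher. The dimmer Des probe set was the exception in L858R tumours: its differences were -0.07 ± 0.08, -0.03 ± 0.08 and -0.13 ± 0.08, and it was called in none of the 3 comparisons. It read 6.70, 6.61, 6.73, 6.71 and 6.66 in the mixed-strain normals and 6.53, 6.62, 6.47 and 6.84 in the L858R tumours, so its groups overlapped.

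Synpo2 went the other way, with larger falls on probe sets other than the one that represents it. The probe set with the deepest fall read 8.59, 8.38, 7.85, 8.69 and 7.57 in mixed-strain normals and 5.97, 6.26, 5.96 and 5.47 in L858R tumours, a difference of -2.30 ± 0.29, and the next gave -2.07 ± 0.30, beside -0.75 for the representing probe set. In L858R+T790M tumours the same probe sets gave -1.89 and -1.39, and in T790M tumours -1.60 and -1.07. The second Pdgfrb probe set was called lower in L858R tumours (-0.89 ± 0.16) but in neither of the others (-0.30 ± 0.15 and -0.07 ± 0.15). The second Cspg4 probe set was called in L858R tumours (-0.95 ± 0.21) and in L858R+T790M tumours (-0.65 ± 0.20), and not in T790M tumours (-0.42 ± 0.20).

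With the median over a gene's probe sets in place of the brightest, all calls among these 10 genes held in the 3 comparisons. Differences in L858R tumours became -0.79 for Acta2, -1.74 for Myh11, -0.81 for Des and -1.39 for Synpo2. The order of the genes by size of fall therefore depends on the probe set, while the direction did not.

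**Figure D3:**
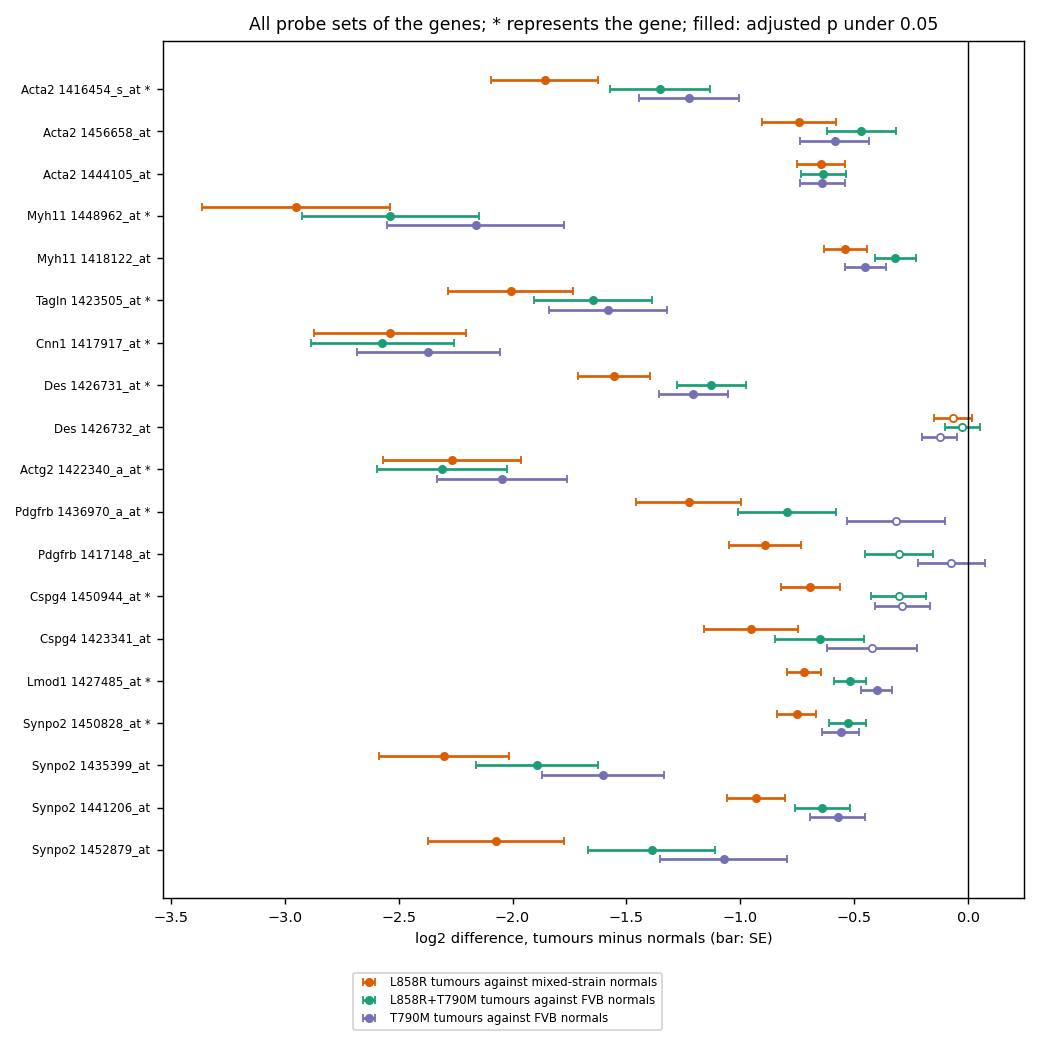
Log2 difference of tumours minus normals (x axis, bars are SEs) for all 19 probe sets (y axis) in the 3 tumour comparisons; a star marks the probe set that represents its gene, and filled points were called. The dimmer Des probe set sits near 0 in all 3 comparisons, and the Synpo2 probe sets spread from -2.30 to -0.75 in L858R tumours.

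Group means ordered the same way at the top for all 10 genes: both normal sets stood above the 3 tumour groups. L858R tumours were lowest for 7 genes and L858R+T790M tumours for the 3 others, Myh11, Cnn1 and Pdgfrb. These ranks are of means without adjustment for strain label. The L858R and L858R+T790M means were nearly equal for Actg2 (6.698 and 6.70) and Pdgfrb (9.462 and 9.454). None of the 10 genes was called by limma between L858R+T790M and T790M tumours, where 1.59% of all genes were called. The 1 gene under an unadjusted p of 0.05 was Pdgfrb, lower in L858R+T790M tumours (-0.48 ± 0.22, 95% interval -0.93 to -0.03, adjusted p from limma 0.262). The share of all genes under an unadjusted p of 0.05 is not given, here or in the comparisons below, so these counts have no background. For Myh11 the difference was -0.37 with an interval of -1.19 to 0.44, which leaves room for a more than 2-fold difference. For Lmod1 it was -0.12 with an interval of -0.26 to 0.02.

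L858R tumours were set against the other tumours after subtraction of their own normals, since the strain label differs. None of the 10 genes was called against L858R+T790M tumours (0.0715% of all genes called, with 1 of the 10, Cspg4, under an unadjusted p of 0.05) or against T790M tumours (0.418% of all genes called, 3 of the 10 under an unadjusted p of 0.05). The fall of Pdgfrb was larger in L858R than in T790M tumours (-0.91 ± 0.32, 95% interval -1.57 to -0.25), a difference that did not pass the adjustment (adjusted p from limma 0.188). Lmod1 gave -0.32 ± 0.10 (adjusted p from limma 0.143) and Cspg4 -0.40 ± 0.18 (adjusted p from limma 0.29). With arrays weighted by their quality, Pdgfrb was called in this comparison (-0.98, adjusted p from limma 0.0435) and between L858R+T790M and T790M tumours (-0.64, adjusted p from limma 0.0468).

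Between mixed-strain and FVB normals none of the 10 genes was called by limma (1.04% of all genes called). Under an unadjusted p of 0.05, for which no share of all genes is given, stood 2 of the 10, Cspg4 and Lmod1. Mixed-strain normals lay entirely above FVB normals for Pdgfrb (0.44 ± 0.22, adjusted p from limma 0.339) and Myh11 (0.54 ± 0.39, adjusted p from limma 0.554), as 6.08% of all genes did. A fit of the 10 normal arrays alone called both, but the share of all genes called in that fit is not given here. Set against the FVB normals instead, a comparison added after the data had been seen, L858R tumours still had all 10 genes called lower.

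The range of the 10-gene mean was wider in L858R+T790M and T790M tumours than in L858R tumours, a difference that was not tested. Of the 14 tumour arrays, 7 had all 10 genes below the lowest matching normal, and no tumour had fewer than 8. The mean over the 10 genes ran from 7.79 to 8.08 in L858R tumours, from 7.65 to 8.52 in L858R+T790M tumours and from 7.84 to 8.87 in T790M tumours, below 9.29 to 9.65 in FVB and 9.38 to 9.82 in mixed-strain normals. The first T790M tumour stood highest, and the next T790M tumour reached 8.27. Without it, 8 genes were still called lower in T790M tumours, with differences of -2.71 for Cnn1, -2.27 for Actg2 and -1.38 for Acta2, and Pdgfrb at -0.42 stayed uncalled (adjusted p from limma 0.147).

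The first T790M tumour was also the highest of its group for several markers of other cells, though not for mesothelial or macrophage markers. Its mean cardiac marker level was 10.67 against 6.06 to 8.36 in the other 4 T790M tumours, within the range of the FVB normals (9.82 to 10.73). Its airway epithelial mean (10.6), lung fibroblast mean (8.90) and endothelial mean (10.9) were the highest of the T790M tumours as well. Their part in the higher smooth muscle values of that tumour was not tested.

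**Figure D4:**
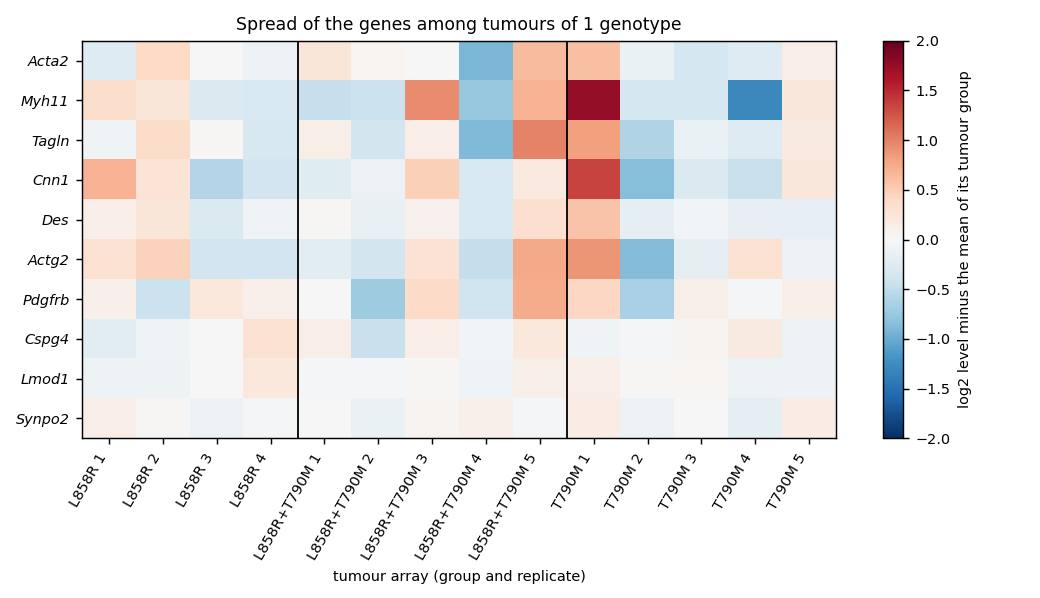
Log2 level minus the mean of its tumour group (colour) for the 10 genes (top to bottom) in the 14 tumour arrays (left to right; lines part the groups). Myh11 and Cnn1 are darkest in the first T790M tumour, and Lmod1 and Synpo2 vary least.

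After subtraction of the group means, the correlation between pairs of the 10 genes over the 14 tumours ranged from -0.26 (Cnn1 with Cspg4) to 0.89 (Acta2 with Tagln), with a median of 0.49 over 45 pairs. These points share an array and its dissection, so the values are a description. Cspg4 had its highest correlation with Pdgfrb (0.53), and Myh11 with Cnn1 (0.85). The 8 other genes whose pattern was most like the mean of the 10 were Rgs12 (r = 0.97, rho = 0.95), Tmod2 (0.96), Myl9 (0.96), Nxpe3 (0.96), Klhl5 (0.94), Tpm2 (0.94), Clic4 (0.93) and Nkg7 (0.93). Without the 2 tumours farthest from the median, r was 0.95 for Rgs12 and 0.92 for Myl9. Taken singly, the gene most like each was Usp7 for Acta2, Gata2 for Myh11, Tpm2 for Tagln, Dnah12 for Cnn1, Jph2 for Des, Eif4enif1 for Actg2, Swap70 for Pdgfrb, Hspa1l for Cspg4, Arhgap21 for Lmod1 and Lzts3 for Synpo2, with r from 0.86 to 0.96. The 10 genes could be chosen here too, but none was most like another of them. All of these likeness genes were picked for the highest r among all genes over 14 tumours. Such values are high by that choice, and no background was computed.

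Other genes of the contractile apparatus fell too, but not as a block. Of 21 measured, 14 were called lower and 2 higher in L858R tumours, 12 and 3 in L858R+T790M tumours, and 11 and 1 in T790M tumours, with median log2 differences of -0.72, -0.53 and -0.56. The deepest falls in L858R tumours were those of Itga8 (-3.60 ± 0.50), an integrin of contractile interstitial cells, Ppp1r14a (-3.00 ± 0.38), the inhibitor of myosin phosphatase known as CPI-17, Myl9 (-2.65 ± 0.38), the regulatory light chain of smooth muscle myosin, and Tpm2 (-2.30 ± 0.26), beta-tropomyosin. Myl9 read 11.46, 11.13, 10.82, 11.36 and 10.96 in mixed-strain normals and 8.65, 8.95, 8.32 and 8.06 in L858R tumours, without overlap.

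Tpm1, alpha-tropomyosin, was called higher in all 3 tumour groups (0.68 ± 0.15, 1.06 ± 0.14 and 0.73 ± 0.14). Its 4 probe sets disagreed: in L858R tumours 2 were called higher and 1 lower, from -1.03 to 0.68. In L858R+T790M tumours 3 were called higher and 1 lower, from -0.81 to 1.06. In T790M tumours only 1 was called, the one that rose, with differences from -0.55 to 0.73. Tpm1 is expressed in many cell types and is spliced differently in muscle. Actn1, a non-muscle alpha-actinin, was called higher (0.29 ± 0.11) in L858R tumours, a call lost without L858R tumour 3 or 4 or mixed-strain normal 4 or 5, and also (0.41 ± 0.10) in L858R+T790M tumours. Cald1, caldesmon, was called higher in L858R+T790M tumours (0.62 ± 0.16) and not in L858R (0.31 ± 0.17) or T790M tumours (0.20 ± 0.16). Of its 5 probe sets, 4 were called higher in L858R+T790M tumours and 1 in T790M tumours. Tested directly, Cald1 did not pass between L858R+T790M and T790M tumours (0.42 ± 0.16, adjusted p from limma 0.189) or between L858R and L858R+T790M tumours after strain adjustment (-0.31 ± 0.24, adjusted p from limma 0.727). The 1 gene of this list called between tumour genotypes was Cnn2, a calponin also found outside muscle, higher in L858R+T790M than in T790M tumours (0.32 ± 0.07, adjusted p from limma 0.0321).

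Receptors and channels that set smooth muscle tone gave 10 lower and 2 higher calls of 13 measured in L858R tumours, 9 and 2 in L858R+T790M tumours and 8 and 1 in T790M tumours, with medians of -0.82, -0.45 and -0.43. Both subunits of the soluble guanylate cyclase, the nitric oxide sensor, fell in L858R tumours: Gucy1b1 (-2.78 ± 0.36) and Gucy1a1 (-2.63 ± 0.40). Pde5a, the phosphodiesterase that breaks down its product cyclic GMP, was lower (-2.61 ± 0.38), and so was Ednrb, an endothelin receptor that endothelial cells also carry (-2.65 ± 0.30). Agtr1a, the angiotensin II receptor found on lung pericytes and smooth muscle, was lower in L858R, L858R+T790M and T790M tumours (-2.60 ± 0.30, -2.28 ± 0.28 and -2.02 ± 0.28). Gucy1b1, Gucy1a1, Pde5a and Ednrb were called lower in L858R+T790M and T790M tumours as well. Rgs4, a brake on G protein signals, rose (1.43 ± 0.29, 1.09 ± 0.27 and 0.81 ± 0.27); the T790M call was lost without FVB normal 3 or T790M tumour 4. The calcium channel subunit Cacna1c was called higher (0.61 ± 0.23) in L858R tumours, a call lost without any 1 of L858R tumours 1, 2 and 3 or mixed-strain normals 1, 2, 3 and 5, and (0.74 ± 0.22) in L858R+T790M tumours.

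The wider pericyte list held 12 genes, and 11 were called lower in L858R tumours, 9 in L858R+T790M tumours and 8 in T790M tumours (medians -1.12, -0.86 and -0.73). Ebf1, a transcription factor of pericytes and B cells, fell (-2.32 ± 0.27, -2.18 ± 0.25 and -1.60 ± 0.25). Ndufa4l2, a mitochondrial protein enriched in lung pericytes, fell (-1.47 ± 0.14, -1.19 ± 0.13 and -1.11 ± 0.13). Trpc6, a cation channel, fell (-1.48 ± 0.26, -1.20 ± 0.24 and -0.67 ± 0.24), the last with an adjusted p from limma of 0.0323. Higd1b, another gene enriched in lung pericytes, fell in L858R, L858R+T790M and T790M tumours (-1.34 ± 0.25, -1.13 ± 0.24 and -1.08 ± 0.24).

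Kcnj8 and Abcc9 were called lower in L858R tumours (-0.45 ± 0.13 and -0.45 ± 0.12) only. Their differences were -0.10 and 0.01 in L858R+T790M tumours and 0.01 and 0.18 in T790M tumours. Heyl was not called in T790M tumours (-0.36 ± 0.15). Rgs5, a widely used pericyte marker that restrains G protein signals, was the 1 gene of this list called higher. It read 8.21, 7.81, 7.28, 8.23 and 8.16 in mixed-strain normals, 8.64, 8.44, 8.02, 8.28 and 8.45 in FVB normals, 10.01, 11.40, 10.87 and 11.74 in L858R tumours, 11.09, 11.01, 10.41, 10.56 and 11.76 in L858R+T790M tumours and 9.11, 11.45, 10.25, 11.44 and 10.67 in T790M tumours. Every tumour lay above every normal lung of its strain, and the first T790M tumour, highest for most of the 10 genes, was the lowest tumour for Rgs5. The rise was 3.07 ± 0.40, 2.60 ± 0.37 and 2.22 ± 0.37 on the log2 scale, with adjusted p-values (limma) of 2.73e-06, 1.3e-05 and 7.32e-05. All 4 Rgs5 probe sets were called higher in each comparison, by 1.46 to 3.07, 1.09 to 2.60 and 0.71 to 2.22.

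**Figure D5:**
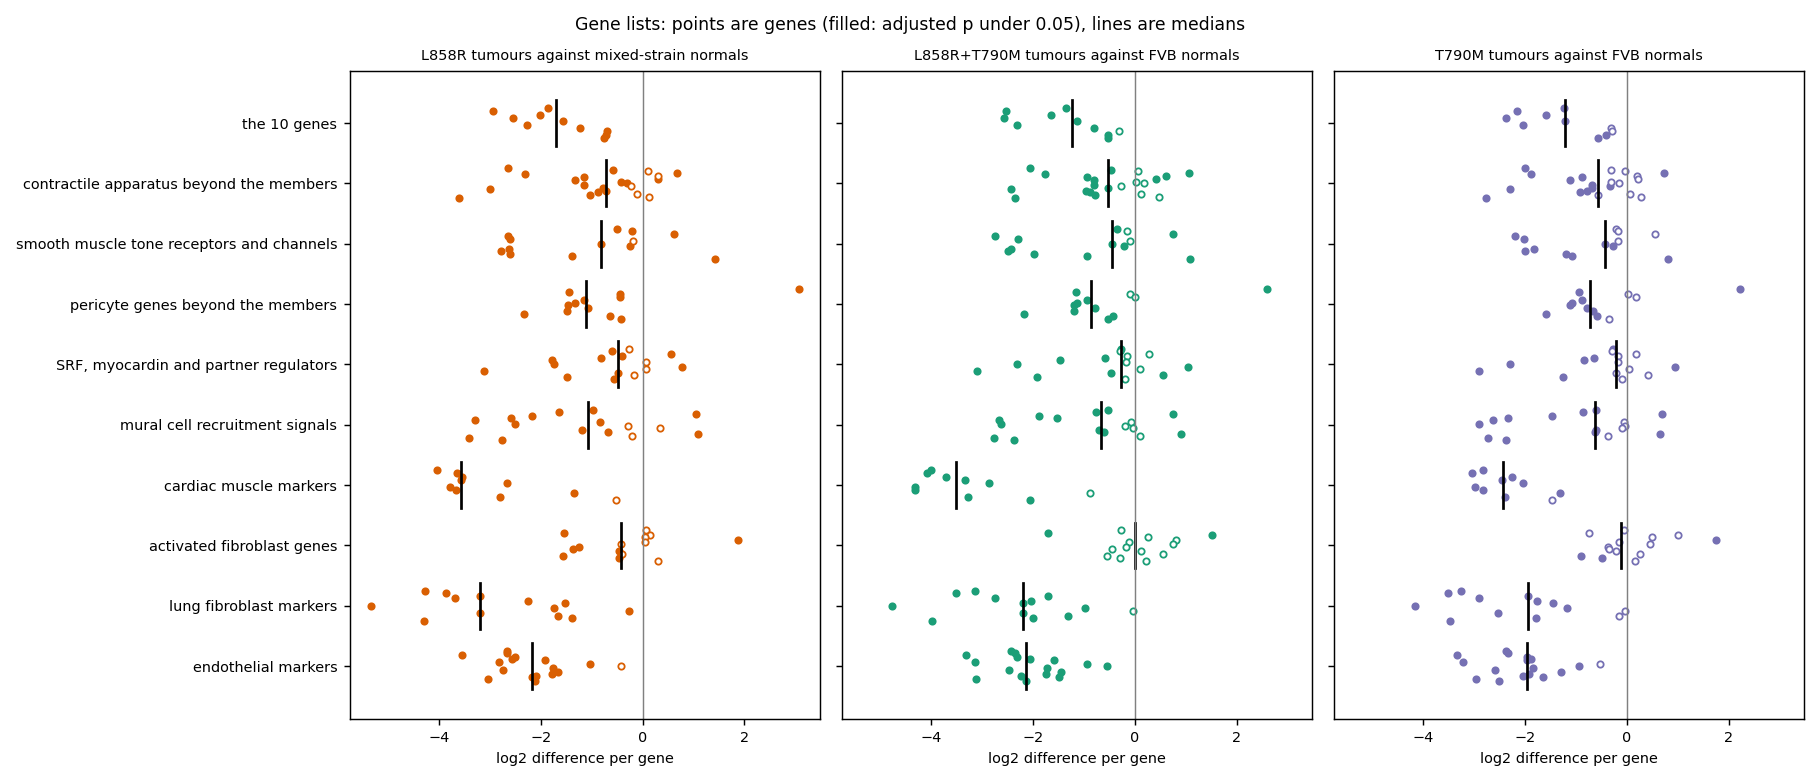
Log2 difference per gene (x axis) for the 10 genes and 9 gene lists (y axis) in the 3 tumour comparisons; points are genes, filled where called, and black lines are list medians. The median of the 10 genes lies left of the medians of the contractile, tone and pericyte lists and right of those of the cardiac, lung fibroblast and endothelial markers, while single genes overlap, and the pericyte gene far to the right is Rgs5.

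Among 15 regulators around serum response factor, 9 were called lower and 2 higher in L858R tumours, 7 and 2 in L858R+T790M tumours and 6 and 1 in T790M tumours (medians -0.48, -0.27 and -0.22). Foxf1, a factor of lung mesenchyme and endothelium, fell (-3.11 ± 0.49, -3.10 ± 0.46 and -2.91 ± 0.46), and Klf4, a factor that represses smooth muscle genes and acts in many other cells, fell too (-1.75 ± 0.37, -2.31 ± 0.35 and -2.29 ± 0.35). Mef2c fell (-1.79 ± 0.34) and Csrp2, a LIM protein of smooth muscle, fell (-1.49 ± 0.28) in L858R tumours. Klf5, which is also an epithelial factor, rose (0.77 ± 0.20, 1.05 ± 0.19 and 0.94 ± 0.19) on the probe set that represents it, but only 1, 3 and 2 of its 3 probe sets were called higher, with differences from 0.02, 0.23 and 0.07 upwards. Mrtfa, a coactivator of serum response factor, was called higher in L858R tumours (0.55 ± 0.14), and Gata6 in L858R+T790M tumours (0.55 ± 0.19), the latter call lost without FVB normal 4 or 5 or without L858R+T790M tumour 2, 3 or 4.

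Srf and Myocd, the factor and its partner, were named for their role after their values had been seen. Srf had a difference of -0.26 ± 0.11 in L858R tumours, not called (adjusted p from limma 0.0557), and of -0.27 ± 0.10 and -0.27 ± 0.10 in the others, where it was called but passed in only 2 and 3 of the 10 refits that leave out 1 array. Myocd read 6.30, 7.02, 6.06, 6.55 and 5.93 in mixed-strain normals and 5.50, 5.79, 6.04 and 5.76 in L858R tumours, ranges that overlap, and was called lower there (-0.60 ± 0.15, adjusted p from limma 0.00248). In L858R+T790M and T790M tumours its differences were -0.29 ± 0.14 and -0.30 ± 0.14, and it was not called. A second Myocd probe set was called in none of the comparisons.

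Ligands and receptors that recruit mural cells gave 11 lower and 2 higher calls of 16 in L858R tumours, and 10 and 2 in each of the other groups (medians -1.08, -0.66 and -0.62). Pdgfb, the ligand of the Pdgfrb receptor and named here for that role after its values had been seen, read 11.20, 11.01, 11.21, 10.98 and 11.30 in mixed-strain normals and 9.26, 9.30, 9.44 and 10.00 in L858R tumours. It fell in all 3 comparisons (-1.64 ± 0.24, -0.77 ± 0.23 and -0.87 ± 0.23), although replicate 5 of the L858R+T790M tumours, at 10.53, lay among the FVB normals. Angpt1, the pericyte-made ligand of the endothelial receptor Tek, fell (-3.29 ± 0.53, -2.67 ± 0.50 and -2.63 ± 0.50).

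Endothelial genes of the same list moved with these. Acvrl1 and Eng, receptors for bone morphogenetic proteins, were lower (-3.41 ± 0.48 and -2.76 ± 0.32) in L858R tumours, and S1pr1, a sphingosine phosphate receptor, was lower (-2.90 ± 0.40) in T790M tumours. Pdgfra, a receptor of fibroblasts rather than pericytes, was lower (-2.59 ± 0.51) in L858R tumours. Pdgfc, another growth factor of the same family, was called higher (1.05 ± 0.24, 0.75 ± 0.23 and 0.68 ± 0.23), the last lost without T790M tumour 5, with 1 of its 2 probe sets called in L858R+T790M tumours, and Tgfbr1, a receptor for transforming growth factor beta, was as well (1.08 ± 0.12, 0.91 ± 0.11 and 0.65 ± 0.11).

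Markers of other cells of the lung moved in the same comparisons. Endothelial markers were called lower for 16, 17 and 16 of 17 genes, with a mean level of 8.38 to 10.9 over all tumours and 11.5 to 12.0 over all normals. Their median differences (-2.18, -2.14 and -1.96) were larger falls than those of the 10 genes (-1.71, -1.24 and -1.22), as were those of lung fibroblast (-3.19, -2.20 and -1.95), cardiac (-3.56, -3.52 and -2.43), airway epithelial (-1.89, -2.21 and -1.48) and mesothelial markers (-1.78, -1.50 and -2.19). Lung fibroblast markers were lower for 13, 12 and 11 of 13 (7.04 to 8.90 in tumours, 9.89 to 10.7 in normals) and mesothelial markers for 6, 4 and 6 of 6 (6.11 to 8.33 and 8.36 to 9.62). Cardiac markers, expressed in the muscle sleeve of mouse pulmonary veins, were lower for 9 of 10 in each comparison (6.06 to 10.7 and 9.49 to 11.3). Skeletal muscle markers were lower for 1, 3 and 3 of 9 (5.87 to 6.12 and 6.00 to 7.65), or 2, 1 and 0 when only the groups compared were fitted, and airway epithelial markers for 6, 6 and 5 of 8 (8.35 to 10.6 and 10.8 to 11.1).

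Alveolar type 2 markers were called higher for 8, 8 and 7 of 9 genes (13.1 to 13.6 in tumours and 12.6 to 12.8 in normals). Their median log2 difference was 0.64, 0.59 and 0.44, beside 0.05, 0.03 and 0.00 for all genes. For calls higher, in this and the other lists, the share of all genes is not given. Macrophage markers were higher for 6, 1 and 0 of 8 and lower for 1, 0 and 1 (9.45 to 11.8 and 9.70 to 10.1), and 5 were higher in L858R+T790M tumours without the second of them. RMA levels do not show whether a gene is absent, so no marker can be given as at 0. Over the 14 tumours, with group means subtracted, the mean of the 10 genes correlated at r = 0.91 with the contractile list, 0.82 with endothelial markers, 0.80 with the tone and the recruitment lists, 0.74 with cardiac, 0.71 with the regulator list, 0.70 with airway markers and the wider pericyte list, 0.67 with lung fibroblast, 0.45 with activated fibroblast, 0.44 with mesothelial, 0.29 with macrophage, 0.09 with skeletal muscle and -0.28 with alveolar type 2 markers. Without the 2 tumours farthest from the median, r was 0.82 with the contractile list, 0.76 with the tone list and 0.70 with endothelial markers. It was 0.62 with the recruitment list, 0.51 with cardiac markers and 0.46 with the regulator list. Airway markers gave 0.72 and the wider pericyte list 0.69, so the order of the lists depends on those tumours. The part of these other cells in the lower smooth muscle and pericyte values was not tested.

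RNA degradation was read from Gapdh as the level of its 3' control minus that of its 5' control, which was higher by 0.11 in L858R tumours than in mixed-strain normals (exact two-sided permutation test, p = 0.0317, adjusted p = 0.127 over 4 tests). It differed by 0.03 (exact permutation p = 0.389) and -0.03 (exact permutation p = 0.365) in L858R+T790M and T790M tumours against FVB normals. Its part in the results was not tested.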

How the data were processed

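The authors deposited log2 probe set levels. The submitters' processing notes name RMA, without a version, and its settings were not stated in the labels. Array medians lay between 7.21 and 7.34, so no further scaling was applied. Of 45101 probe sets, 34945 were annotated to 1 gene, 932 to several and 9160 to none; 64 controls were left out, and symbols were updated by gene identifier. Group means of the 18193 genes came from limma 3.58.1 (R 4.3.3; 5 groups over 24 arrays, eBayes with a trend, two-sided, Benjamini-Hochberg over all genes); the script was tested on simulated data. With 4 or 5 arrays a group, the number of arrays limits the precision.

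The 10 genes and the 14 gene lists were chosen with earlier results of these data known. The text names the 10 genes, from each list at most 4 called genes with the largest change in a comparison and any called against the majority of its list, and for likeness the 8 genes nearest to the mean of the 10 and 1 for each. Srf, Myocd, Pdgfb, Cnn2, Kcnj8, Abcc9 and Heyl, and the genes with CArG matches, stand outside this rule. Alternatives were other scalings, probe set rules, filters, thresholds, array weights, prior, samples in the fit, normals, a replicate block and each array left out.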

Additional observations from a re-analysis of the deposited data

Results flagged for a closer look

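Of 95 sets of 4 or 5 arrays of a probe set, 3 had an array that stood apart from the rest of its group by more than Dixon's 95% limit; chance gives about 1 in 20. The representing Des probe set read 8.88 in the first T790M tumour, with the next tumour at 8.26. The representing Pdgfrb probe set read 11.02 in the first mixed-strain normal lung, with the next at 10.70. The dimmer Myh11 probe set read 6.84 in the second L858R tumour, with the next at 6.56.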

How the results depend on the processing

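The counts of the 10 genes called were 10, 9 to 10 and 8 to 9 in L858R, L858R+T790M and T790M tumours when each array was left out in turn, and 0 in each of the other 4 comparisons. With array weights, 1 gene (Pdgfrb) was called between L858R+T790M and T790M tumours, 1 (Pdgfrb) between L858R and T790M tumours after strain adjustment, and 3 (Pdgfrb, Cspg4 and Lmod1) between mixed-strain and FVB normals; a fit to only the normals called 2 there (Myh11 and Pdgfrb). For the fits with array weights and with only the normals, the shares of all genes called are not given here. With the dimmest genes left out the counts were 8, 8 and 6, with Lmod1 and Synpo2 not tested. The main fit did not pair arrays by replicate number. The correlation of same-numbered arrays across groups ran from -0.28 to 0.00 in the L858R comparison. It ran from -0.15 to 0.15 and -0.11 to 0.21 in the L858R+T790M and T790M comparisons, 0.00 to 0.44 between these tumours and -0.12 to 0.10 between the normals. Arrays with different numbers were not set beside these, so whether replicate numbers pair the arrays was not tested. The replicate block gave 10, 10 and 8 calls, the added one being Cspg4 (-0.31, adjusted p from limma 0.0478). Of the values that were called lower in the 3 tumour comparisons, none changed sign under any alternative. Uncalled values that changed sign with the median over probe sets were Acta2 (0.10) and Synpo2 (-0.19) between L858R+T790M and T790M tumours and Acta2 between normals (-0.038); with array weights they were Cspg4 (0.059) and Synpo2 (-0.012) between L858R+T790M and T790M tumours and Cnn1 (-0.042) between L858R and L858R+T790M tumours. With 1 array left out, sign changes of uncalled values stood between L858R+T790M and T790M tumours for Acta2 (-0.29 to 0.10), Cnn1 (-0.41 to 0.14), Cspg4 (-0.0685 to 0.094), Des (-0.005 to 0.22), Myh11 (-0.69 to 0.065), Synpo2 (-0.0145 to 0.068) and Tagln (-0.31 to 0.15). They stood between L858R and L858R+T790M tumours for Actg2 (-0.11 to 0.23) and Cnn1 (-0.20 to 0.23), between L858R and T790M tumours for Actg2 (-0.43 to 0.0035) and Cnn1 (-0.40 to 0.17), and between the normals for Actg2 (-0.16 to 0.082) and Des (-0.0885 to 0.0465). The cause was not tested.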

Other observations

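Activated fibroblast genes, which share Acta2 and Tagln with smooth muscle in scarring and in tumour stroma, did not move as 1 group. Of 14 measured, 6 were called lower and 1 higher in L858R tumours, 1 and 1 in L858R+T790M tumours and 2 and 1 in T790M tumours, with medians of -0.42, 0.01 and -0.11. Among all genes, 18.1%, 16.1% and 17.9% were called lower in the same order. Cthrc1, a secreted protein of activated fibroblasts, rose (1.87 ± 0.47) in L858R and (1.74 ± 0.45) in T790M tumours. Tnc, the matrix protein tenascin C, rose (1.52 ± 0.42) in L858R+T790M tumours. Postn, periostin, fell (-1.55 ± 0.32) in L858R and (-1.70 ± 0.30) in L858R+T790M tumours. Loxl1, a collagen and elastin cross-linking enzyme, fell (-1.57 ± 0.35) in L858R and (-0.90 ± 0.33, adjusted p from limma 0.0351) in T790M tumours. The counts rested on single arrays: 3 genes were lower in L858R tumours without tumour 2 or 4 or mixed-strain normal 3 or 5, 3 in L858R+T790M tumours without tumour 5, and at most 1 in T790M tumours without FVB normal 1, 2 or 3 or T790M tumour 2 or 4. Without L858R+T790M tumour 2, or without T790M tumour 1 or 2, 2 genes were higher in the comparison concerned.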
